A study of Mus musculus with 21 samples.

Results

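The genes described here are those of the mouse mitochondrial genome, taken as every gene row of the count table whose symbol starts with mt-. There are 37 such rows among 45664 gene rows, and 33 of them hold at least 1 count over the 21 libraries. Of these 33, 29 passed the filter on summed counts and were tested: 13 protein genes, 2 ribosomal RNA (rRNA) genes and 14 transfer RNA (tRNA) genes. The rows mt-Tw, mt-Td, mt-Tk and mt-Th held 0 counts in all 21 libraries, which allows a level of up to 0.00595 CPM (counts per 1e6 counts of a library; 3 counts over the summed library totals, counting error only). That bound does not cover reads left uncounted because they also match another place in the genome. The rows mt-Tf, mt-Ty, mt-Tg and mt-Tr held 4, 2, 1 and 3 counts in all and were not tested.

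The tissue was a piece of ventral pons, in the brainstem, with the motor neurons of the facial nucleus and parts of the nearby reticular and trigeminal nuclei. All mice were C57BL/6 CX3CR1GFP/wt animals, in which 1 copy of a microglial receptor gene carries a fluorescent protein. The right facial nerve was cut where it leaves the skull, at 8 weeks of age. The groups of 3 libraries each were the lesion (right) pons 7, 14 and 30 days later, at 9, 10 and 12 weeks of age, the contralateral (left) pons of the same days and ages, and the left pons of unoperated mice at day 0 and 8 weeks. The side comparison asks what the cut did locally, and the comparison with day 0 asks how an operated animal's pons differs from one before surgery. The labels name separate samples but do not state which animals they came from, so the p-values measure the spread between these samples.

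Mitochondria read both strands of their small circular genome as long precursor RNAs, and tRNAs punctuate the precursors and are cut out to release the messenger and ribosomal RNAs. Most genes are transcribed from the heavy strand promoters, while mt-Nd6 and 8 tRNAs are encoded on the other strand and come from the light strand promoter. The protein genes code for membrane subunits of respiratory complexes I, III and IV and of the ATP synthase (complex V), which neurons depend on for their energy. In block tissue, fewer cells of a type and less RNA per cell cannot be told apart.

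The tRNA rows on which the results turn are short, so their sequences are shown with the anticodon in capitals. They are from the GENCODE transcripts of GRCm38 and read 5′ to 3′ on the coding strand of the gene. The first is the cysteine tRNA mt-Tc (chromosome M, 5192 to 5257, minus strand), the next the glutamate tRNA mt-Te (14071 to 14139, minus strand) and the last the glutamine tRNA mt-Tq (3772 to 3842, minus strand).
mt-Tc: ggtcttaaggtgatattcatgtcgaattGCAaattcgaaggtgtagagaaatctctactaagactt
mt-Te: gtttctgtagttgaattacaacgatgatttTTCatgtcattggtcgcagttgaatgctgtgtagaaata
mt-Tq: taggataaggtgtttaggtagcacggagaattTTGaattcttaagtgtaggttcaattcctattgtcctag
These genes are 66, 69 and 71 bases long and the reads were 50 bases. Counts on such a row cannot tell a mature tRNA from the uncut precursor. The strand setting of the authors' counting is not given in the sources used here, so on these rows reads of the opposite strand, which lies inside the precursor of the other strand, cannot be told apart from the gene's own.

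Several protein genes have nuclear copies, and the start of mt-Nd3 beside its copy shows how alike they are. Chromosome 1 of GRCm38 carries 7 annotated pseudogenes on the minus strand between 24611535 and 24616197, which copy mt-Co1, mt-Co2, mt-Atp6, mt-Co3, mt-Nd3, mt-Nd4l and mt-Nd4. The mt-Nd3 gene (complex I) and its copy Gm28438 match in 344 of 345 aligned bases. Their first 28 bases are shown, with the single mismatch in capitals, which is T3C counted from 1 at the 5′ end of mt-Nd3.
mt-Nd3: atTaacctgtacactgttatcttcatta
Gm28438: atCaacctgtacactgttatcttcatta
The stretch of mt-Nd3 lies at chrM:9459-9486 on the plus strand and that of Gm28438 at chr1:24613092-24613119 on the minus strand. Gm28437, the copy of mt-Co3 (complex IV), matched it in all 783 aligned bases, so that 50-base reads of the 2 genes carry no difference.

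Levels per length differed widely among the protein genes. As mean CPM per kilobase over the 21 libraries, mt-Cytb (cytochrome b, complex III) stood at 8291, mt-Nd1 (complex I) at 7133, mt-Co1 (the catalytic subunit of complex IV) at 6704 and mt-Nd2 (complex I) at 4058. Next in CPM per kilobase came mt-Nd6 at 3542, mt-Nd4 at 3509 and mt-Nd5 at 1908, all of complex I. The other 6 protein genes were far lower on this scale, with mt-Co3 at 54.2, mt-Co2 (complex IV) at 49.2, mt-Atp6 (complex V) at 47.2, mt-Nd3 at 5.28, mt-Atp8 (complex V) at 5.17 and mt-Nd4l (complex I) at 4.39.

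Of those 6, 5 shared 98% to 100% of their 50-base windows with another annotated transcript, while mt-Cytb, mt-Nd1 and mt-Nd6 shared 0%. The windows of mt-Atp8, which lies between mt-Co2 and mt-Atp6, were not found in another annotated transcript either, and genome sequence outside transcripts was not used here. The copies of those 2 neighbours lie next to each other on chromosome 1, with Gm10925 ending at 24614651 and Gm28661 starting at 24614885. The sequence between them, where a copy of mt-Atp8 would lie, was not examined. Its 0% therefore does not show that it has no copy. mt-Co1 and mt-Nd4, with 51.1% and 62.2% of windows shared, were not among the low genes.

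The copies held counts too. Gm28437 summed to 14302 counts over all libraries and mt-Co3 to 22465, Gm28661 to 8588 and mt-Co2 to 17688, and Gm28438 to 2129 and mt-Nd3 to 953. Gm29216 summed to 20106 counts, against 5086875 for mt-Co1. How reads that match both places were assigned is not given in the sources used here, so the values of mt-Co2, mt-Co3, mt-Atp6, mt-Nd3 and mt-Nd4l are uncertain. Those of mt-Atp8 may be uncertain in the same way.

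**Figure D1:**
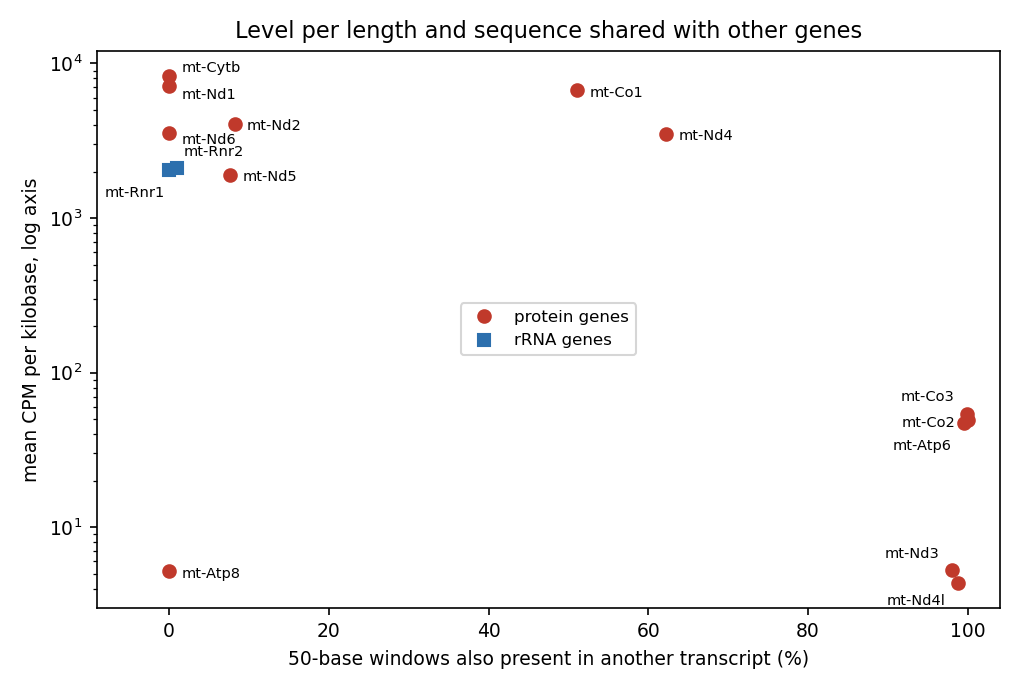
Mean level per length of the 13 protein genes (red circles) and 2 rRNA genes (blue squares) over 21 libraries, on a log axis, against the share of 50-base windows that also occur in another annotated transcript. The 5 genes at 98% or more lie between 4.39 and 54.2 CPM per kilobase and mt-Atp8, at 0%, at 5.17, while the lowest of the others is mt-Nd5 at 1908.

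The rRNA genes stood at 2056 CPM per kilobase for mt-Rnr1 (the small subunit rRNA) and 2096 for mt-Rnr2 (the large subunit rRNA). On day 0 the order of the 7 well counted protein genes was mt-Cytb (6759 ± 519 CPM per kilobase, SD, n = 3), mt-Co1 (4837 ± 585), mt-Nd1 (3947 ± 683), mt-Nd4 (2474 ± 196), mt-Nd2 (2290 ± 205), mt-Nd6 (1614 ± 184) and mt-Nd5 (1319 ± 133). The neighbours mt-Nd4 and mt-Nd2 lay within each other's SD. The ranks of mt-Co1 and mt-Nd4, in this and the other orders given, also depend on how reads of their shared windows were counted. In the day 30 contralateral pons the order of CPM per kilobase was mt-Cytb (11900 ± 1076), mt-Nd1 (10560 ± 1475), mt-Co1 (9704 ± 872), mt-Nd2 (6254 ± 856), mt-Nd4 (5144 ± 578), mt-Nd6 (5021 ± 212) and mt-Nd5 (2812 ± 265), in which mt-Nd4 and mt-Nd6 did not differ beyond their SD, nor did mt-Cytb, mt-Nd1 and mt-Co1 each from the next.

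The best counted tRNA was mt-Tc. Per kilobase it averaged 362.6 CPM, mt-Te 119.3, the methionine tRNA mt-Tm 57.0, the leucine tRNA mt-Tl1 42.9 and mt-Tq 40.1. Summed over all tRNA rows, a library held 812 to 2363 tRNA counts in the operated groups and 605 to 752 on day 0. mt-Tc alone gave 11081 of the counts over all libraries, mt-Te 3955, mt-Tm 1928, mt-Tl1 1567 and mt-Tq 1315. The lowest tested tRNAs, mt-Tn and mt-Tl2, summed to 53 and 61 counts over the 21 libraries.

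Library totals ran from 17358868 to 29827291 counts in the operated groups and from 35874913 to 41448945 on day 0. The column headers carry the lane code L001 for days 0 and 7, L002 for day 14 and L003 for day 30, and index codes recur between days 0 and 7. Day, age, lane or run, and (against day 0) depth and surgery therefore move together and cannot be told apart in any comparison between days, while lesion and contralateral libraries of a day share the lane. The day 14 lesion library of replicate 2 stood apart: 2.81% of its counts were mitochondrial, and replicates 3 and 1 had 4.40% and 4.48%. Its ratio of 20.3 mt-Nd5 counts per 100 mt-Cytb counts compared with 29.4 to 44.8 in the other 20, and rRNA made up 16.4% of its mitochondrial counts. The sides of day 30 follow the sample descriptions, which are opposite to the side letters of the count columns. By them the summed injury genes of cut neurons (Sprr1a, Atf3 and Gal) gave 72.9 to 154.8 CPM in the day 30 lesion libraries and 8.45 to 12.4 CPM in the contralateral ones.

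Between the lesion and contralateral sides no mitochondrial gene was called on any day. The count was 0 of 29 on day 7, 0 of 29 on day 14 and 0 of 29 on day 30, by edgeR's quasi-likelihood test with Benjamini-Hochberg adjustment at an adjusted p under 0.05. Of all 22294 genes tested, 1.65% were called on day 7 (1.56% higher, 0.0942% lower), 3.88% on day 14 (2.58% higher, 1.31% lower) and 1.16% on day 30 (1.04% higher, 0.121% lower). At an unadjusted p under 0.05 the counts of members were 0, 3 and 2 of 29, where 7.31%, 18.4% and 7.75% of all genes passed on days 7, 14 and 30. DESeq2 and limma-voom also called 0 on each day. The median log2 difference, lesion over contralateral, of the 13 protein genes was -0.16 on day 7, -0.24 on day 14 and -0.16 on day 30, against -0.0066, 0.00018 and 0.0025 for all genes. For the 14 tRNA genes the medians were 0.09, -0.37 and -0.13.

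mt-Cytb, the only complex III gene in this genome, shows the size of the differences. It stood at 7750, 7196 and 7514 CPM in the day 7 lesion libraries, against 8946, 7949 and 8170 CPM in the contralateral ones, a log2 difference of -0.16 ± 0.12 (SE; adjusted p = 0.95). The groups did not overlap. On day 14 mt-Cytb had 8767, 5646 and 8838 CPM in lesion libraries, against 9028, 9344 and 9006 CPM in contralateral ones (log2 difference -0.24 ± 0.12, adjusted p = 0.29). On day 30 it had 12600, 11840 and 12550 CPM in lesion libraries, against 12630, 13210 and 14990 CPM in contralateral ones (-0.14 ± 0.12, adjusted p = 0.87). On each day all 3 lesion libraries lay below the contralateral ones, and none of the 3 differences passed the test. Of the well counted protein genes, only mt-Cytb separated the sides in this way on day 30.

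On day 7, 4 of 29 members (mt-Nd1, mt-Nd2, mt-Nd4 and mt-Cytb) lay lower in every lesion library than in any contralateral one and 0 lay higher. Of all genes tested, 5.26% lay lower in this way and 7.26% higher. On day 14 the counts were 7 lower and 2 higher (all genes 10.5% and 10.7%), and on day 30 they were 3 lower and 0 higher (8.3% and 9.71%). mt-Nd5 had the smallest p among the protein genes on day 14, with 3472, 1147 and 3046 CPM in lesion libraries, against 3714, 4183 and 3659 CPM in contralateral ones. Its log2 difference of -0.59 ± 0.27 had an adjusted p of 0.26, and the lowest lesion value was that of replicate 2, which stands apart.

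The mitochondrial share of all counts averaged 3.76% ± 0.127 in the day 7 lesion pons and 4.17% ± 0.257 in the contralateral pons (SD, n = 3 each), with no overlap. On day 14 it was 3.90% ± 0.939 in the lesion pons and 4.59% ± 0.147 in the contralateral pons, and the highest lesion value was 4.476%, against a lowest contralateral value of 4.483%. By an exact two-sided permutation test p was 0.1 on both days, the smallest that 3 against 3 libraries allow. The day 14 difference was -0.694 percentage points, and -0.152 without lesion replicate 2. On day 30 the share was 6.12% ± 0.298 in the lesion pons and 6.66% ± 0.542 in the contralateral pons, with overlap (exact p = 0.3).

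Among the tRNAs, mt-Tc had 22.04, 19.0 and 18.2 CPM in day 7 lesion libraries, against 24.9, 18.7 and 19.8 CPM in contralateral ones (log2 difference -0.10 ± 0.24, adjusted p = 1). The day 14 values were 24.65, 15.7 and 24.2 CPM in lesion libraries and 26.9, 31.5 and 26.1 CPM in contralateral ones (-0.39 ± 0.23, adjusted p = 0.4), with no overlap. On day 30 mt-Tc had 43.6, 32.9 and 31.1 CPM in lesion libraries and 43.0, 33.9 and 34.7 CPM in contralateral ones (-0.05 ± 0.22, adjusted p = 0.98). The groups overlapped on days 7 and 30, and no difference passed the test.

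The smallest p-values among the tRNAs, on day 14, were those of mt-Tl2 and mt-Tt, named after their values were seen. The leucine tRNA mt-Tl2, lower in lesion libraries, had an adjusted p of 0.13 on a row of 61 counts in all. The threonine tRNA mt-Tt had 0.51, 0.56 and 0.83 CPM in day 14 lesion libraries against 0.29, 0.16 and 0.37 CPM in contralateral ones (log2 difference 1.198 ± 0.45, adjusted p = 0.14). Scaled by mitochondrial protein counts in place of library totals, it was the single member called between sides in any alternative tried. This scaling moved the median of all genes by 0.358 on the log2 scale, lesion over contralateral on day 14. The change of the lesion difference between days, tested by interaction contrasts, gave 0 of 29 calls for day 14 minus day 7 (0% of all genes called), for day 30 minus day 14 (0.0807%, all lower) and for day 30 minus day 7 (0.0269%, all lower). In the same order, 1, 2 and 1 of 29 members had an unadjusted p under 0.05, against 5.90%, 15.1% and 4.31% of all genes.

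**Figure D2:**
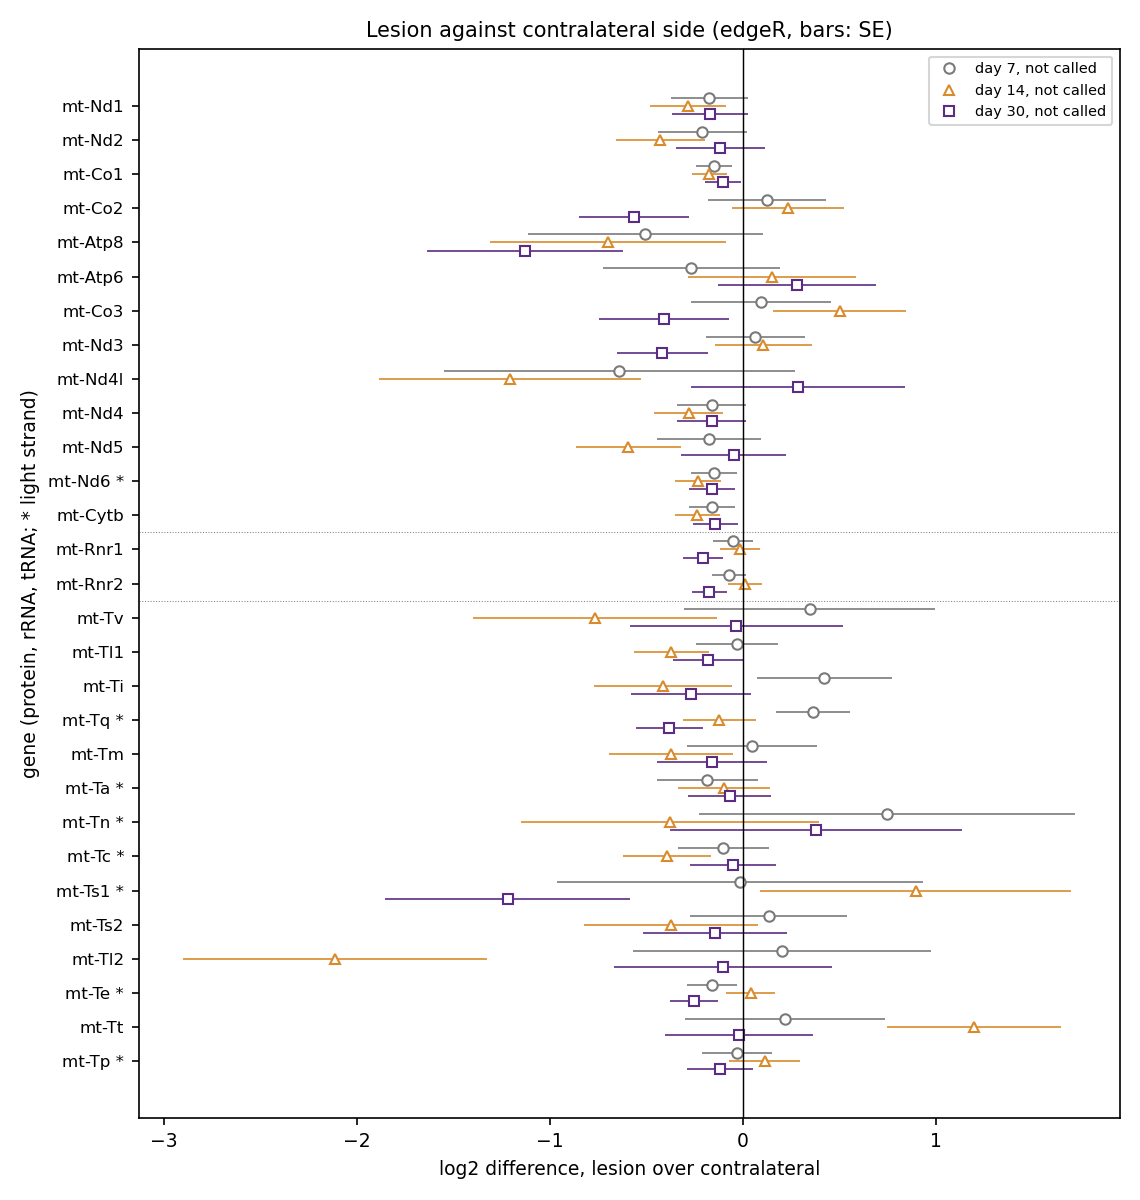
Log2 difference, lesion over contralateral, of the 29 tested mitochondrial genes on day 7 (grey circles), day 14 (orange triangles) and day 30 (purple squares), with edgeR's standard error; open symbols were not called and stars mark light strand genes. No gene was called on any day, and mt-Cytb lies between -0.24 and -0.14 on all 3 days.

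Against the unoperated pons of day 0, mitochondrial genes were called higher in every operated group, on both sides, with the most calls on day 30. In the day 30 lesion pons 23 of 29 members rose and 0 fell, and in the day 30 contralateral pons 21 rose and 0 fell (edgeR, adjusted p under 0.05). Of all genes tested, 12.7% rose and 9.69% fell in the first comparison, and 9.32% rose and 6.81% fell in the second. All these comparisons share the same 3 day 0 libraries. The mitochondrial share of counts was 6.12% ± 0.298 in the day 30 lesion pons and 6.66% ± 0.542 in the day 30 contralateral pons, against 3.25% ± 0.309 on day 0 (exact p = 0.1 each, the smallest possible).

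Earlier days gave fewer calls. In the day 7 lesion pons 9 members rose and 2 fell, while 8.14% of all genes rose and 4.32% fell. The day 7 contralateral pons had 11 up and 2 down (6.84% and 3.66% of all genes). In the day 14 lesion pons 12 rose and 1 fell (9.78% and 7.03%), and in the day 14 contralateral pons 16 rose and 0 fell (9.08% and 6.73%). The mitochondrial share of the day 14 lesion libraries overlapped that of day 0, through replicate 2.

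Of the complex I genes, mt-Nd6, the one light strand protein gene, had 2560, 2228 and 2216 CPM in day 30 lesion libraries and 2692, 2482 and 2644 CPM in contralateral ones, against 785, 780.2 and 948 CPM on day 0. The log2 differences were 1.48 ± 0.12 (adjusted p = 6.9e-08) and 1.64 ± 0.12 (adjusted p = 2.7e-08). mt-Nd6 was already 0.98 ± 0.12 higher in the day 7 lesion pons (adjusted p = 1.5e-05) and 1.12 ± 0.12 higher in the day 7 contralateral pons, and it was called in all 6 comparisons with day 0. Every operated library lay above every day 0 library. With an unknown strand setting, reads of the heavy strand over this gene cannot be told apart from its own, which holds for every value of mt-Nd6 and of the light strand genes given here. The library kit selects RNA by its poly(A) tail. How well it caught mt-Nd6 RNA beside that of mt-Cytb and the other protein genes was not tested.

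mt-Nd1 had 9111, 8297 and 9566 CPM in day 30 lesion libraries, against 3223, 3611 and 4498 CPM on day 0, a log2 difference of 1.25 ± 0.20 (adjusted p = 0.00037). Contralaterally on day 30 the log2 difference of mt-Nd1 was 1.42 ± 0.20 and that of mt-Nd2 1.45 ± 0.24. mt-Nd4 (0.90 ± 0.18 in the lesion pons, 1.06 ± 0.18 contralaterally) and mt-Nd5 (1.05 ± 0.27 in the lesion pons, 1.09 ± 0.27 contralaterally) also rose on day 30. The mt-Nd5 calls were lost without day 0 replicate 2, with adjusted p of 0.058 in the lesion pons and 0.054 in the contralateral pons. In the day 7 lesion pons the log2 differences were 0.59 ± 0.20 for mt-Nd1, 0.21 ± 0.18 for mt-Nd4 and 0.09 ± 0.27 for mt-Nd5, with none called. The mt-Nd1 call in the day 7 contralateral pons was lost without day 0 replicate 1 or 2 or contralateral replicate 1 (adjusted p from 0.07 to 0.091). That in the day 14 lesion pons was lost without day 0 replicate 1 or 2 or lesion replicate 1 or 3 (0.12 to 0.18). The mt-Nd2 call in the day 14 contralateral pons was lost without day 0 replicate 2 or contralateral replicate 2 (0.077 and 0.053).

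mt-Nd4l, a complex I gene whose nuclear copy Gm10222 matches it in all 294 aligned bases, was lower on day 7. It had 0.231, 0.398 and 0.345 CPM in lesion libraries, against 3.51, 2.11 and 2.89 CPM on day 0 (log2 difference -3.08 ± 0.68, adjusted p = 0.0063), and it also fell in the day 7 contralateral and day 14 lesion pons. The day 7 contralateral call was lost without day 0 replicate 1 or contralateral replicate 2 or 3 (adjusted p from 0.057 to 0.09). The day 30 difference was -0.50 ± 0.50 in the lesion pons and was not called. mt-Nd3 was called in no comparison with day 0.

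In complex III, mt-Cytb was called against day 0 on day 30 alone. Its log2 difference was -0.05 ± 0.12 in the day 7 lesion pons and 0.24 ± 0.12 in the day 14 contralateral pons, neither called. In the day 30 lesion libraries it had 12600, 11840 and 12550 CPM, against 7579, 7231 and 8387 CPM on day 0, a log2 difference of 0.67 ± 0.12 (adjusted p = 0.00038), and in the day 30 contralateral pons the log2 difference was 0.82 ± 0.12 (adjusted p = 7.1e-05). No day 30 library overlapped day 0.

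In complex IV, mt-Co1 had 14370, 13730 and 13800 CPM in day 30 lesion libraries and 14000, 14460 and 16530 CPM in contralateral ones, against 7254, 6699 and 8467 CPM on day 0 (log2 differences 0.90 ± 0.09 and 1.00 ± 0.09, adjusted p = 2.5e-07 and 6.5e-08). It was also called in the day 14 contralateral pons (0.43 ± 0.09, adjusted p = 0.0024).

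mt-Co2, also of complex IV, had 17.77, 35.49 and 16.46 CPM in day 7 lesion libraries and 26.53, 16.64 and 20.83 CPM in contralateral ones, against 39.28, 43.64 and 53.53 CPM on day 0. It fell on both sides with no overlap, with a log2 difference of -0.97 ± 0.29 in the lesion pons (adjusted p = 0.041) and -1.09 ± 0.29 in the contralateral pons (adjusted p = 0.026). The lesion call was lost on leaving out any of 5 libraries (day 0 replicate 1, 2 or 3, day 7 lesion replicate 1 or 3), with adjusted p from 0.052 to 0.16. The contralateral call was lost without any of 3 (day 0 replicate 3, day 7 contralateral replicate 2 or 3), with adjusted p from 0.084 to 0.12. mt-Co3 was not called on any day. Both have copies that share nearly all of their sequence.

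In complex V, mt-Atp6 had 58.4, 70.8 and 55.4 CPM in day 30 lesion libraries, against 21.2, 20.99 and 27.1 CPM on day 0 (log2 difference 1.41 ± 0.42, adjusted p = 0.024). Leaving out day 0 replicate 1 or 2 or lesion replicate 2 ended this call, with adjusted p from 0.067 to 0.082. mt-Atp8 averaged 1.11 CPM in the day 30 lesion pons and 2.47 CPM in the contralateral pons, against 0.335 CPM on day 0 (1.76 ± 0.60, adjusted p = 0.043, and 2.88 ± 0.56, adjusted p = 0.0015). The lesion call of mt-Atp8 did not survive the loss of any 1 of its 6 libraries (adjusted p from 0.058 to 0.19).

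Both rRNA genes rose as well. mt-Rnr2 had 4760, 3753 and 3891 CPM in day 30 lesion libraries and 5219, 4167 and 4597 CPM in contralateral ones, against 2122, 2269 and 2549 CPM on day 0 (log2 differences 0.84 ± 0.09 and 1.01 ± 0.09, adjusted p = 3.2e-07 and 2.8e-08). It was called in all 6 comparisons with day 0. mt-Rnr1 was called in 5 of them, with log2 differences of 0.77 ± 0.10 in the lesion pons and 0.98 ± 0.10 in the contralateral pons on day 30. Its calls in the day 7 contralateral, day 14 lesion and day 14 contralateral pons were each lost without day 0 replicate 1 or 2. They were also lost without any day 7 contralateral library, without day 14 lesion replicate 2 or 3 and without day 14 contralateral replicate 2 or 3 (adjusted p from 0.065 to 0.2). The rRNA share of mitochondrial counts was 10.6% ± 0.860 in the day 30 lesion pons and 11.1% ± 1.42 in the contralateral pons, against 11.7% ± 0.453 on day 0, and both overlapped day 0.

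Between sides on day 30, mt-Rnr1 had 2752, 2218 and 2353 CPM in lesion libraries, against 2970, 2507 and 2962 CPM in contralateral ones (log2 difference -0.20 ± 0.10, adjusted p = 0.68). The log2 difference of mt-Rnr2, with the values given above, was -0.17 ± 0.09 (adjusted p = 0.7). The sides overlapped for both genes, and each lesion library lay below the contralateral library of the same replicate number.

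**Figure D3:**
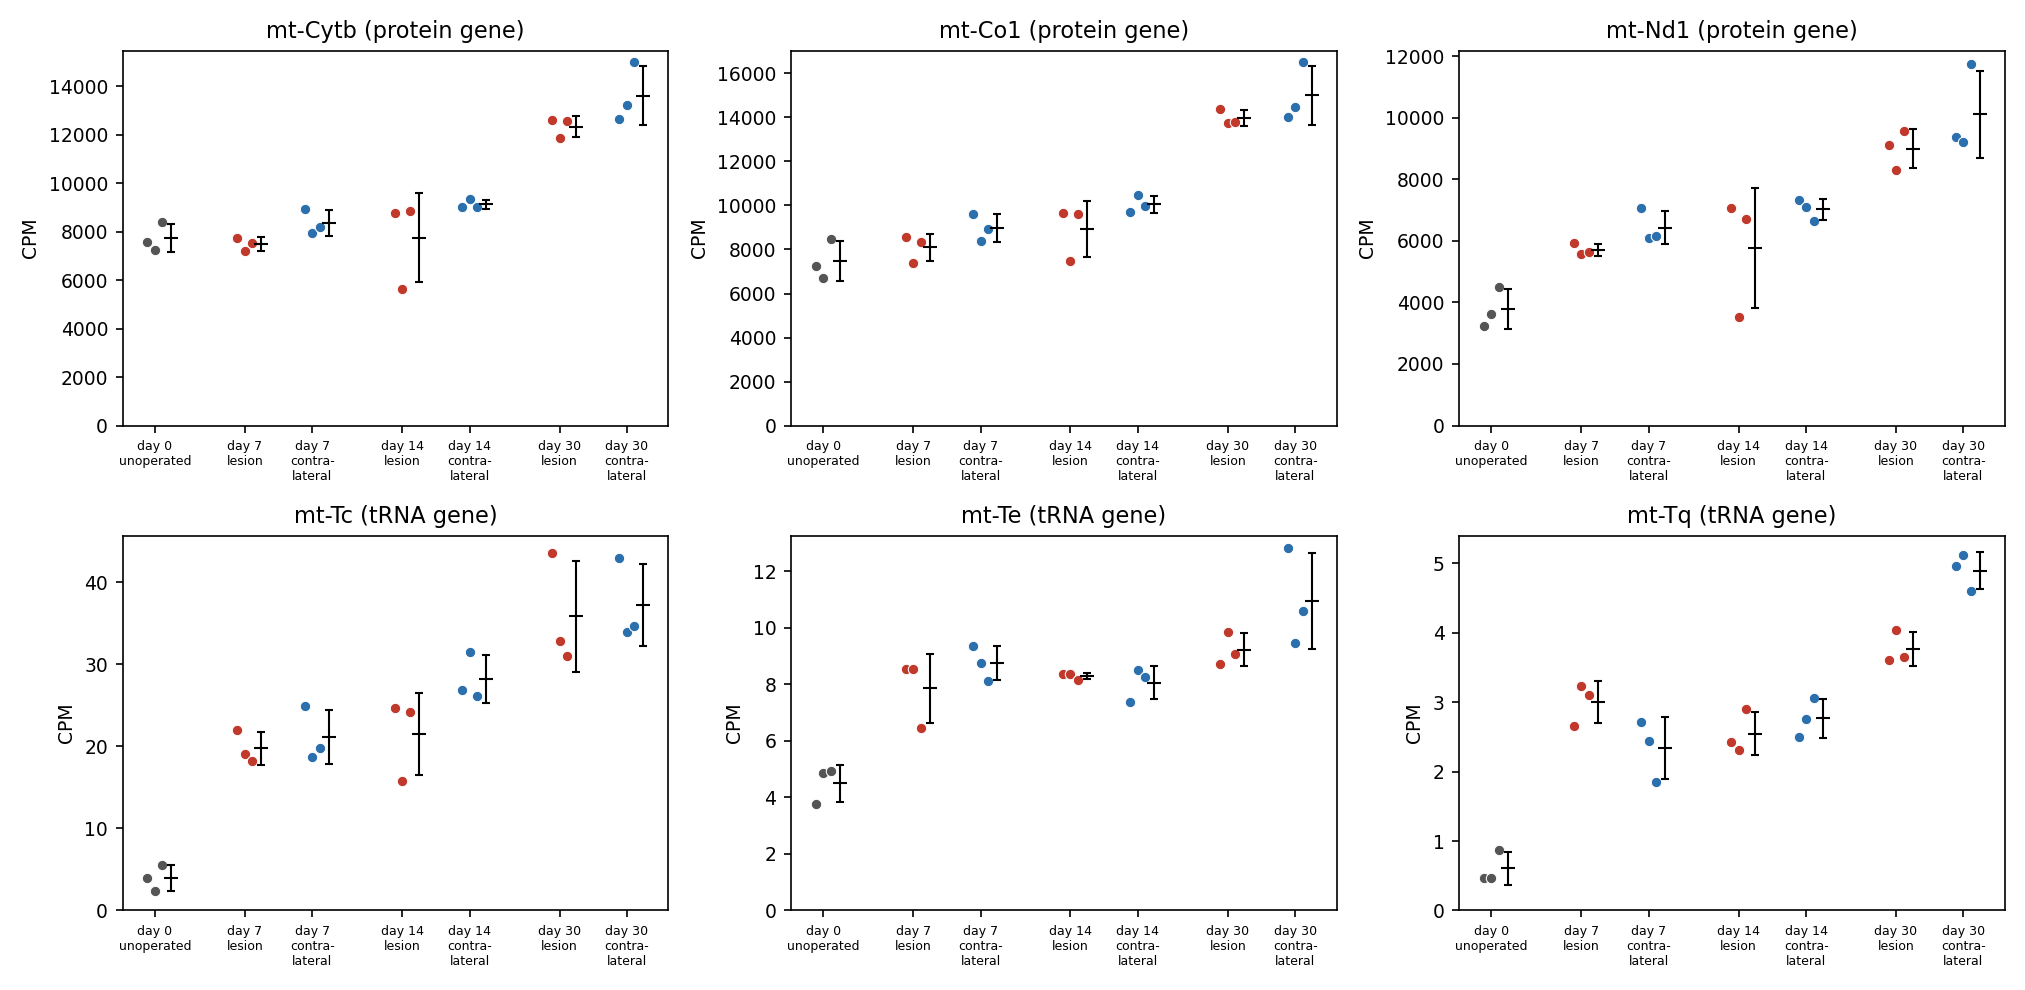
CPM of 3 protein genes (top) and 3 tRNA genes (bottom) in each library, by day and side, with the mean and SD of 3 libraries beside the points; lesion in red, contralateral in blue, unoperated in grey. mt-Cytb and mt-Co1 overlap day 0 in the day 7 and day 14 lesion pons and not on day 30, and mt-Tc, mt-Te and mt-Tq are above day 0 in every operated library.

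On day 7 more tRNA than protein genes were called. Of 14 tRNA genes tested, 7 rose in the day 7 lesion pons, 7 in the day 7 contralateral, 8 in the day 14 lesion, 10 in the day 14 contralateral, 12 in the day 30 lesion and 11 in the day 30 contralateral pons, and 0 fell. For the 13 protein genes the numbers that rose were 1, 2, 2, 4, 9 and 8, and those that fell 2, 2, 1, 0, 0 and 0, in the same order. In the day 7 lesion pons the median log2 difference was 1.33 for tRNA genes and 0.09 for protein genes, against -0.014 for all genes.

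mt-Tc had 22.04, 19.0 and 18.2 CPM in day 7 lesion libraries, against 3.92, 2.32 and 5.57 CPM on day 0, a log2 difference of 2.33 ± 0.26 (adjusted p = 1.9e-05). On day 30 the difference in the lesion pons was 3.20 ± 0.26 (adjusted p = 3.2e-07) and in the day 30 contralateral pons 3.25 ± 0.26 (adjusted p = 3.5e-07). All 18 operated libraries, from 15.7 to 43.6 CPM, lay above the 3 of day 0.

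mt-Tq had 2.66, 3.24 and 3.10 CPM in day 7 lesion libraries, against 0.469, 0.469 and 0.877 CPM on day 0 (log2 difference 2.31 ± 0.21, adjusted p = 1.5e-08), and its difference reached 3.01 ± 0.20 in the day 30 contralateral pons (adjusted p = 5.7e-11). mt-Te had 8.54, 8.56 and 6.46 CPM in day 7 lesion libraries, against 3.75, 4.85 and 4.92 CPM on day 0 (0.79 ± 0.13, adjusted p = 9.2e-05), and reached 1.28 ± 0.13 in the day 30 contralateral pons. Both were called in all 6 comparisons and neither overlapped day 0. mt-Tm and mt-Tl1, encoded on the heavy strand like most members, were not called on day 7 (0.22 ± 0.32 and 0.11 ± 0.20 in the lesion pons). Both rose on day 30, mt-Tm by 1.16 ± 0.29 (adjusted p = 0.0077) and mt-Tl1 by 1.00 ± 0.18 (adjusted p = 0.00023) in the lesion pons.

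Outside the rule for names and seen in the results, the isoleucine tRNA mt-Ti, the serine tRNA mt-Ts2 and the proline tRNA mt-Tp were also called higher in all 6 comparisons. mt-Ti had 0.750, 1.29 and 1.77 CPM in day 7 lesion libraries, against 0.0552, 0.187 and 0.258 CPM on day 0. mt-Ts2 had 0, 1 and 2 counts in the day 0 libraries, so no fold is given. The serine tRNA mt-Ts1, on the light strand, had lower values in day 7 libraries that did not pass the test. Its log2 difference was -1.93 ± 0.68 in the day 7 lesion pons and -1.91 ± 0.68 in the contralateral pons (adjusted p = 0.065 and 0.075). mt-Ts1 lies between mt-Co1 and mt-Co2, and the chromosome 1 sequence between the copies of those genes was not examined for a copy of it.

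**Figure D4:**
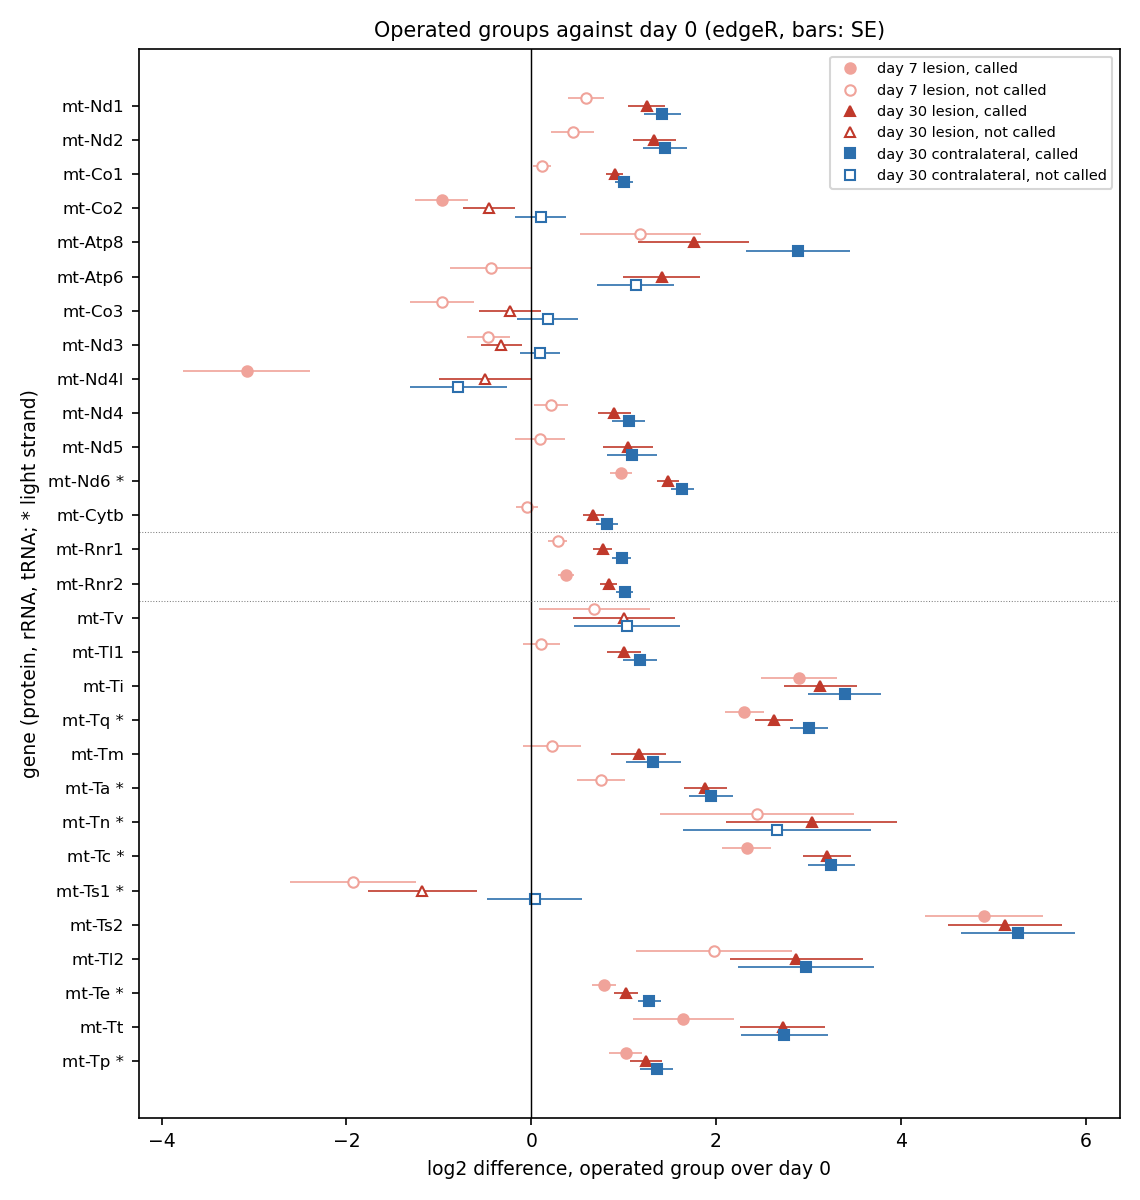
Log2 difference over day 0 of the 29 tested mitochondrial genes in the day 7 lesion (pink circles), day 30 lesion (red triangles) and day 30 contralateral pons (blue squares), with edgeR's standard error; filled symbols were called and stars mark light strand genes. mt-Tc lies between 2.33 and 3.25 in the 3 groups, and mt-Cytb at -0.05 on day 7; mt-Ts2 rests on 3 counts on day 0.

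Because these levels are relative to all counts, the members were also set against each other within a library. mt-Nd6 reached 17.6 to 22.4 counts per 100 mt-Cytb counts in the 18 operated libraries, against 10.4 to 11.3 on day 0. The light strand genes together made up 3.60% to 4.56% of mitochondrial counts in operated libraries and 2.61% to 2.71% on day 0, and 97.9% of the light strand counts over all libraries were those of mt-Nd6. The tRNA rows made up 0.0990% to 0.130% of mitochondrial counts in operated libraries, against 0.0497% to 0.0547% on day 0, and mt-Tc alone 463 to 675 per 1e6 mitochondrial counts in operated libraries, against 78.3 to 157 on day 0. These 4 measures did not overlap between operated and day 0 libraries, and each group of 3 against day 0 gave an exact p of 0.1 for the first 3, the smallest possible. The 8 light strand tRNAs without mt-Nd6 made up 0.0777% to 0.108% of mitochondrial counts in operated libraries, against 0.0336% to 0.0400% on day 0. Separation by a ratio to mt-Cytb was not particular to mt-Nd6. The heavy strand gene mt-Co1 gave 102.7 to 132.4 counts per 100 mt-Cytb counts in operated libraries, against 92.6 to 101.0 on day 0. Scaled by mitochondrial protein counts, mt-Cytb itself had log2 differences from -0.31 to -0.26 over the 6 comparisons with day 0.

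mt-Nd6 per 100 mt-Cytb averaged 22.01 ± 0.346 in the day 7 lesion pons and 21.9 ± 0.535 in the contralateral pons (SD, n = 3 each). The ratio averaged 21.5 ± 0.668 in the day 14 lesion pons and 21.4 ± 0.421 in the day 14 contralateral pons, and 18.9 ± 1.34 in the day 30 lesion pons and 19.2 ± 1.88 in the day 30 contralateral pons. The sides overlapped on every day (exact p = 0.8, 0.6 and 1). In the day 30 lesion pons the ratio lay below the day 14 lesion pons with no overlap (exact p = 0.1), while mt-Nd6 itself stood higher in CPM. The day 14 lesion library of replicate 2, low in mitochondrial counts, had 21.9 mt-Nd6 counts per 100 mt-Cytb counts, like the other libraries of that day.

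**Figure D5:**
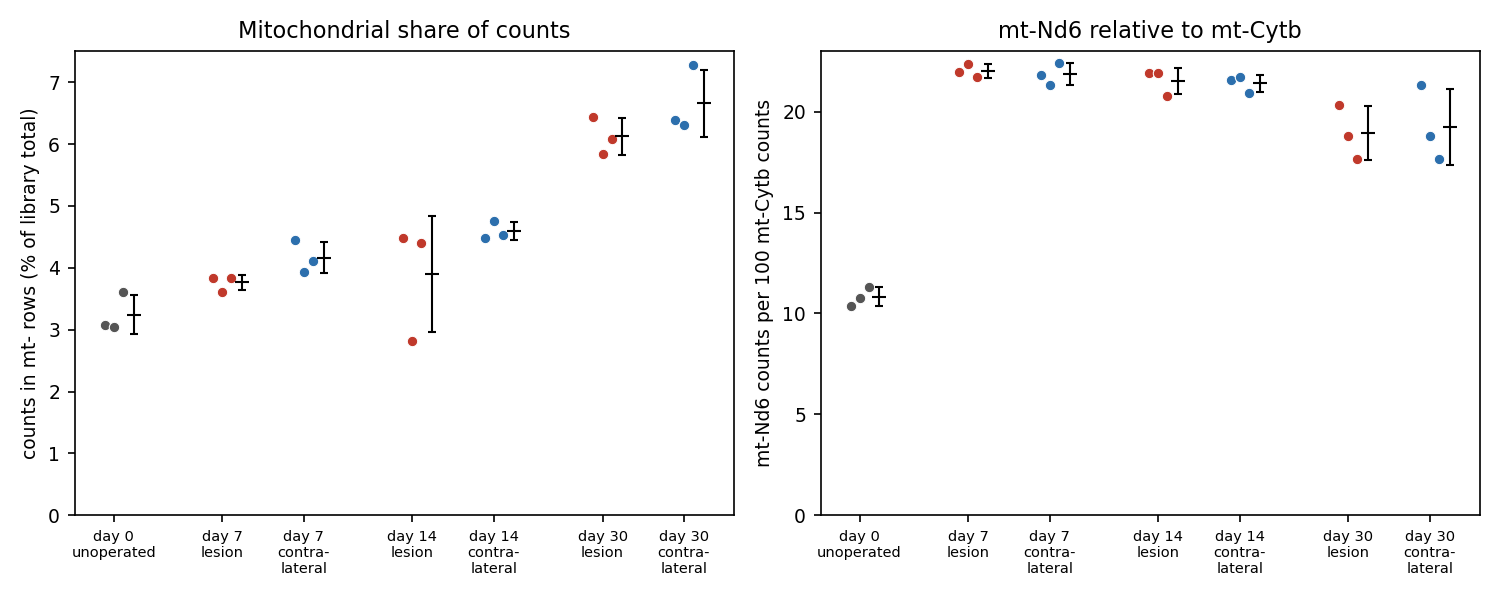
Mitochondrial share of all counts (left) and mt-Nd6 counts per 100 mt-Cytb counts (right) in each of 21 libraries, by day and side, with the mean and SD of 3 libraries; lesion in red, contralateral in blue, unoperated in grey. The share is highest on day 30 on both sides, and the ratio lies between 10.4 and 11.3 on day 0 and between 17.6 and 22.4 in all operated libraries.

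When libraries were scaled by their mitochondrial protein counts, so that a gene is set against the other mitochondrial genes, 5 members stayed higher in all 6 comparisons with day 0: mt-Nd6, mt-Tc, mt-Tq, mt-Ti and mt-Ts2. Their scaled log2 differences ranged from 0.51 to 0.76 for mt-Nd6, from 2.06 to 2.31 for mt-Tc and from 1.57 to 2.11 for mt-Tq. mt-Nd4l was lower in all 6. Of the other light strand tRNAs, mt-Te was called higher in 2 of 6, with scaled log2 differences from 0.06 to 0.69. mt-Ta was called higher in 3 and mt-Tn in 2, mt-Ts1 was lower in 5 of 6 and mt-Tp was called in none by this scaling. By this scaling mt-Cytb, mt-Co1, mt-Nd4, mt-Nd5, mt-Rnr1 and mt-Rnr2 were called in none, and several of their differences turned negative. The protein genes among them are part of the counts used for scaling, mt-Co1 and mt-Cytb with 5086875 and 4694700 counts over all libraries. That they show small scaled differences is therefore largely built in. This scaling moved the median of all genes by -0.97 (day 30 lesion over day 0) and -1.09 (day 30 contralateral over day 0) on the log2 scale. How many of all genes it called is not given here, and the shares of all genes given above for library totals do not apply to it. These member counts are therefore not set against a share of all genes.

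Other measures moved with day 0 against the operated libraries. Summed over marker lists, the 4 neuronal genes (Rbfox3, Snap25, Syt1, Stmn2) gave 4667 to 5368 CPM in operated libraries against 3864 to 3944 CPM on day 0. The 3 endothelial genes (Pecam1, Cldn5, Flt1) gave 137 to 186 CPM in operated libraries against 201 to 224.5 CPM on day 0. The oligodendrocyte genes Mbp, Mog and Mag summed to 11340 to 15830 CPM in operated libraries against 15690 to 16750 CPM on day 0. The part of tissue makeup, depth and lane in the differences from day 0 was not tested. Between sides the 4 microglial genes (Cx3cr1, Tmem119, P2ry12, Aif1) gave 92.3 to 114 CPM in lesion libraries against 60.5 to 78.4 CPM in contralateral ones over the 3 days, and the 8 choroid plexus genes reached 6685 CPM in 1 day 7 lesion library. The 4 motor neuron genes (Chat, Slc5a7, Isl1, Prph) gave 191 to 233 CPM in day 14 lesion libraries and 242 to 275 CPM in contralateral ones. On day 30 the same motor neuron genes gave 183 to 226 CPM in lesion libraries and 231 to 352 CPM in contralateral ones, while the sides overlapped on day 7. Their part in the side differences given above was not tested.

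Between day 14 and day 30 a few well counted members rose on both sides. In the lesion pons 5 of 29 were called higher on day 30 than on day 14 (1.75% of all genes called, 0.754% higher): mt-Co1 (log2 difference 0.65 ± 0.09, adjusted p = 0.00043), mt-Cytb (0.67 ± 0.12, adjusted p = 0.0059), mt-Rnr1, mt-Rnr2 and mt-Nd6. In the contralateral pons 5 were called (0.408% of all genes, 0.175% higher): mt-Co1 (0.58 ± 0.09, adjusted p = 0.0097), mt-Cytb (0.58 ± 0.12, adjusted p = 0.046), mt-Rnr1, mt-Rnr2 and mt-Tq. Between day 7 and day 14 the test called 0 of 29 members on either side, where all genes gave 0% in the lesion pons and 0.0224% in the contralateral pons. At an unadjusted p under 0.05 there were 2 members in the lesion pons (5.96% of all genes) and 1 in the contralateral pons (14.3% of all genes), and a fit of the compared groups alone called mt-Nd5 in the contralateral pons.

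The day 30 calls over day 14 depended on single libraries. The count in the lesion pons ran from 2 to 13 when 1 library was left out, with 13 without day 14 lesion replicate 1, 2 without day 30 lesion replicate 1 and 3 without day 30 lesion replicate 3. In the contralateral pons each of the 6 omissions lowered it, to 0, 3 and 1 without day 14 contralateral replicate 1, 2 and 3, and to 2, 2 and 1 without day 30 contralateral replicate 1, 2 and 3. How many of all genes were called without each library is not given here.

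Nuclear genes that serve the mitochondrial genome were counted by list. Of 17 tested genes for mitochondrial transcription and DNA upkeep 1 rose and 2 fell in the day 30 lesion pons against day 0, where 12.7% of all genes rose and 9.69% fell, and 2 rose and 1 fell in the day 30 contralateral pons (9.32% and 6.81% of all genes). In the lesion pons Mterf3, a repressor of mitochondrial transcription in mice, had a log2 difference of 0.29 ± 0.08 (adjusted p = 0.0098). Mgme1, a mitochondrial DNA exonuclease, had -0.41 ± 0.11 (adjusted p = 0.0068), and Top1mt, a mitochondrial topoisomerase, -0.33 ± 0.09 (adjusted p = 0.0083).

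For mitochondrial RNA processing and decay 29 genes were tested. Against day 0, 5 rose and 7 fell in the day 30 lesion pons (12.7% and 9.69% of all genes). In the day 30 contralateral pons 6 rose and 3 fell (9.32% and 6.81% of all genes). On day 14, 3 rose and 0 fell in the lesion pons (9.78% and 7.03% of all genes). In the day 14 contralateral pons 6 rose and 1 fell (9.08% and 6.73% of all genes). Nsun3, which modifies the mitochondrial methionine tRNA, had 14.4 ± 1.93 CPM in the day 30 lesion pons against 9.40 ± 0.565 CPM on day 0 (SD, n = 3 each), a log2 difference of 0.61 ± 0.11 (adjusted p = 0.00025). Lrpprc, which stabilises mitochondrial messengers, had a log2 difference of -0.24 ± 0.05 (adjusted p = 0.0014). Of 22 tested mitochondrial tRNA synthetase genes 1 rose and 3 fell in the day 30 lesion pons (12.7% and 9.69% of all genes). In the day 30 contralateral pons 0 rose and 2 fell (9.32% and 6.81% of all genes). In the lesion pons Mars2, for methionine, had a log2 difference of 0.45 ± 0.10 (adjusted p = 0.0013), and Aars2, for alanine, and Cars2, for cysteine, had -0.26 ± 0.06 and -0.41 ± 0.12 (adjusted p = 0.0025 and 0.015).

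For mitochondrial biogenesis 11 regulators were tested. Against day 0, 4 rose and 0 fell in the day 30 lesion pons (12.7% and 9.69% of all genes). In the day 30 contralateral pons 3 rose and 1 fell (9.32% and 6.81% of all genes). Ppargc1a, the coactivator PGC-1alpha, had 71.0 ± 3.20 CPM in the day 30 lesion pons against 50.9 ± 8.90 CPM on day 0 (log2 difference 0.48 ± 0.10, adjusted p = 0.0017), and its log2 difference was 0.40 ± 0.10 in the day 30 contralateral pons (adjusted p = 0.0094). Sirt1, a deacetylase that acts on PGC-1alpha, had 13.05 ± 1.39 CPM in the day 30 lesion pons against 8.50 ± 1.07 CPM on day 0 (0.62 ± 0.10, adjusted p = 5.6e-05). Yy1, a transcription factor, had a log2 difference of 0.40 ± 0.07 there (adjusted p = 0.00018). Between lesion and contralateral sides the single call in these 4 lists was Gars, the glycine tRNA synthetase, with a log2 difference of 0.22 ± 0.06 on day 14 (adjusted p = 0.049). Of all genes, 1.65%, 3.88% and 1.16% were called between sides on days 7, 14 and 30.

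Mature tRNAs lack the poly(A) tail that the library kit selects for, so a list of nuclear RNAs that mostly lack one was summed as well. The list was not limited to RNAs without a tail, as it includes the host gene Snhg1. The part of each member in the sum is not given here, so the sum does not show whether capture of untailed RNA changed. The 15 listed genes found in the count table gave 6.37 to 7.04 CPM in day 30 lesion libraries. They gave 6.98 to 8.43 CPM in day 30 contralateral libraries, against 6.16 to 7.24 CPM on day 0. The range was 3.52 to 8.40 CPM in day 7 lesion libraries and 5.01 to 9.23 CPM in day 14 lesion libraries, wider than that of day 0 on both ends. The 7 nuclear copies on chromosome 1 summed to 77.4 ± 6.78 CPM in the day 7 lesion pons and 143 ± 21.6 CPM in the day 30 lesion pons, against 145 ± 30.8 CPM on day 0. On day 7 their sum was low together with mt-Co2 and mt-Nd4l, which share sequence with the copies. Not each copy was low. Gm28438 had 80, 73 and 120 counts in day 7 lesion libraries, against 48, 77 and 66 in the larger day 0 libraries.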

How the data were processed

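RNA of 21 pons libraries was sequenced as 50-base reads from a stranded poly(A) kit with 300 ng of total RNA, per the labels' protocols. Reads were processed with CASAVA 1.8.2, Subread, featureCounts and limma on GRCm38.p4, per the submitters' processing notes; the strand setting is not given in the sources used here. The deposited counts are raw whole reads per gene. The deposited log2 values are the authors' log2 CPM matrix, which the recomputed values matched within 5e-11 for 29 members.

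Counts were tested with edgeR 4.0.16 in R 4.3.3 (quasi-likelihood, TMM, 7 groups in one model) on 22294 genes with a summed count above 29, the 32nd percentile; calls had an adjusted p (Benjamini-Hochberg) under 0.05. Errors of log2 differences are standard errors. Shares were compared by two-sided exact permutation tests, which reach 0.1 at best. The fit was tested on simulated data. DESeq2 1.42.0 and limma 3.58.1 were alternatives.

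Same-numbered left and right libraries deviated together on day 7 (r of 0.27, 0.24 and 0.17) and day 30 (0.21, 0.21 and 0.19) and, on day 14, for replicates 1 and 3 (0.27 and 0.17) and not for replicate 2 (-0.0034), over 15480 genes.

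Members and lists were chosen with earlier results of these data known. By rule the text names all protein and rRNA genes, mt-Tc and the 5 tRNAs of highest mean CPM, and from nuclear lists those of smallest adjusted p. Gene coordinates and sequences are from GENCODE M21 transcripts (GRCm38), and all 37 gene lengths matched the file. The oligodendrocyte list is given without 1 gene, which is not reported here.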

Additional observations from a re-analysis of the deposited data

How the results depend on the processing

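Of the results for single genes, 1451 kept direction and side of the threshold, 231 kept direction alone and 20 reversed; of counts and shares, 331 stayed close and 30 moved. The replicate block called 0 members between sides on every day, and 0 for each change of the side difference, as without it. With the block 1, 4 and 5 of 29 members had an unadjusted p under 0.05 on days 7, 14 and 30, against 8.46%, 22.2% and 9.99% of all genes. The smallest on day 30 were mt-Rnr1 (log2 difference -0.21 ± 0.06, adjusted p = 0.08 by edgeR with the block) and mt-Rnr2 (-0.17 ± 0.05, adjusted p = 0.088). Depth limits the tRNA rows: a library held 605 to 2363 tRNA counts. No filter left 33 members among 32815 genes and edgeR's own filter 25 among 18001. The cause of the changes below was not tested.

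Requiring an absolute log2 change of at least 1.7 left 5 calls in each day 7 group against day 0, 6 in each day 14 group, 9 in the day 30 lesion and 8 in the day 30 contralateral pons, and 0 for day 30 against day 14 on either side. Scaling by mitochondrial protein counts gave 1 call between sides on day 14, 8 in the day 14 lesion and 15 in the day 30 lesion pons against day 0, and 3 (lesion) and 0 (contralateral) for day 30 against day 14. For day 30 against day 14 in the lesion pons, DESeq2 called 11, limma-voom 12, the deposited log2 values in limma 2 and the compared groups alone 3, and leaving out a library gave 2 to 13. In the contralateral pons, library totals without mitochondrial genes gave 3, the deposited log2 values 0 and the compared groups alone 13, and leaving out a library gave 0 to 3. The compared groups alone gave 1 for day 14 against day 7 contralaterally. How many of all genes each setting called is not given here. From the member counts alone, a change cannot be told apart from a setting that calls more or fewer genes in general.

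All 20 reversals came with scaling by mitochondrial protein counts, as log2 differences. The protein genes named below are part of the counts used for scaling, so that small scaled differences are largely built in for them. Against day 0, mt-Rnr1 had -0.039 in the day 7 contralateral, -0.23 in the day 14 contralateral, -0.19 in the day 30 lesion and -0.11 in the day 30 contralateral pons. mt-Rnr2 had -0.19 in the day 14 contralateral, -0.14 in the day 30 lesion and -0.077 in the day 30 contralateral pons, and mt-Co1 -0.12, -0.064 and -0.0895 in the same groups. In the day 30 lesion and contralateral pons mt-Nd4 had -0.074 and -0.044 and mt-Cytb -0.30 and -0.28, and mt-Nd5 had -0.0070 contralaterally. For day 30 against day 14 in the lesion pons the values were -0.31 for mt-Rnr1, -0.31 for mt-Rnr2, -0.10 for mt-Co1, -0.23 for mt-Nd6 and -0.042 for mt-Cytb.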
